A study of Mus musculus with 12 samples.

Results

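The regions described here are stretches of the mouse genome that carried histone H4 acetylated at lysine 8 (H4K8ac) in neonatal oligodendrocyte progenitors in each of 3 libraries. They were chosen from the peak lists themselves: the peaks of the 3 neonatal lists were merged wherever they shared at least 1 bp, and a merged region was kept if it held a peak of all 3 lists. This left 4932 regions of 31453, and the other 5008 and 21513 held a peak of 2 lists or of 1 list. The number of lists, the widths and the enrichments of these regions chose them or come from the same lists, so they are described and not tested.

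The cells were sorted at postnatal day 5 from forebrain of PdgfrαH2BEGFP mice, in which the Pdgfra gene drives a nuclear green fluorescent protein. The 3 neonatal libraries are labelled as biological replicates, and the labels do not say how many mice went into each. Their input libraries and the adult progenitors of the same series (12 samples in all) were not analysed here beyond the count of regions: merging all 6 H4K8ac lists gave 98027. Pdgfra is also active in fibroblast-like cells of the meninges and vessels, so the reporter alone does not define the lineage.

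H4K8ac is one of the acetyl marks on the tail of histone H4. It is written by acetyltransferases such as p300 and its paralog CBP and the MYST family, removed by histone deacetylases, and bound by bromodomain proteins of the BET family, and it is found at the start sites of transcribed genes and at active enhancers. Oligodendrocyte progenitors divide and give rise to the myelinating cells of the brain. They are known by the growth factor receptor Pdgfra, the proteoglycan Cspg4 (NG2) and the transcription factors Olig1, Olig2 and Sox10.

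The promoters of marker genes and chromatin regulators that the results turn on are shown from 250 bases before to 30 bases after the RefSeq start site (GRCm38.p6), with CpG dinucleotides in capitals. Pdgfra, Cspg4 and Olig2 are the markers for which a promoter was at hand. Brd2 and Ep300 hold one of the widest and one of the most enriched regions. Mog, a myelin gene, is shown because no library had a peak within 1000 bp of its start. Replicate 2 did have 2 peaks named for Mog (958 bp, highest fold 7.09), farther from that start.
Pdgfra: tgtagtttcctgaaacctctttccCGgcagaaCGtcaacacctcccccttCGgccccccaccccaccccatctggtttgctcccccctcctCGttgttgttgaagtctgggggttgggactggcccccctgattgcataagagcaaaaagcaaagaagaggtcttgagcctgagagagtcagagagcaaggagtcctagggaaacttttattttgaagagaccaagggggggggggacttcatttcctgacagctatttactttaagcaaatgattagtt
Cspg4: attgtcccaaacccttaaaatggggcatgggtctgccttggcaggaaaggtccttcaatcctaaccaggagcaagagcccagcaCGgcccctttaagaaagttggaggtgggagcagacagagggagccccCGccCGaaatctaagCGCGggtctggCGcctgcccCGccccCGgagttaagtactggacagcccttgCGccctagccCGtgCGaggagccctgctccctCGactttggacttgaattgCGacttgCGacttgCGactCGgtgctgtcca
Olig2: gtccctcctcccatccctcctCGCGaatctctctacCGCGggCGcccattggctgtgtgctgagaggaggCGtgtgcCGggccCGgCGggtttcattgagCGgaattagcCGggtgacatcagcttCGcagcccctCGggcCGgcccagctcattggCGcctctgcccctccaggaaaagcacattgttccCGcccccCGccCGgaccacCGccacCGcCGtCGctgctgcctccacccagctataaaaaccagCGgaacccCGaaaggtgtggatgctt
Brd2: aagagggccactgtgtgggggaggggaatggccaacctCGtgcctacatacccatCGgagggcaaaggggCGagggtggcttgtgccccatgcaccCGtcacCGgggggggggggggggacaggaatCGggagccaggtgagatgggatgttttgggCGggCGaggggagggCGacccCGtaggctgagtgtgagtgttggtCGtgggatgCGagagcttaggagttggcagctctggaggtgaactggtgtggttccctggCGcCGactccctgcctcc
Ep300: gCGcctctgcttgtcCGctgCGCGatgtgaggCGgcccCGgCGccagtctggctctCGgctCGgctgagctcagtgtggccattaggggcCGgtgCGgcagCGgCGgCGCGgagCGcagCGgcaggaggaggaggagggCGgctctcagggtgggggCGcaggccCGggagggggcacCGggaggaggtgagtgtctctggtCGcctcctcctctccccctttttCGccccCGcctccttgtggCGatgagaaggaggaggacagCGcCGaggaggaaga
Mog: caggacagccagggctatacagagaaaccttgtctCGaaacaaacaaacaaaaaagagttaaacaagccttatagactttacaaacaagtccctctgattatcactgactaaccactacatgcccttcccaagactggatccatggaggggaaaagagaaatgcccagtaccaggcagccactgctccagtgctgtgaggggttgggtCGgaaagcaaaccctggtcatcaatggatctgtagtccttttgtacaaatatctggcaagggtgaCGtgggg
These windows are chr5:75152001-75152280 on the plus strand (Pdgfra), chr9:56864854-56865133 plus (Cspg4), chr16:91225300-91225579 plus (Olig2), chr17:34121718-34121997 minus (Brd2), chr15:81585964-81586243 plus (Ep300) and chr17:37023369-37023648 minus (Mog). Brd2 has 3 windows in RefSeq, and the one nearest to its peak summits is shown. They hold 4, 16, 24, 14, 27 and 3 CpG dinucleotides in that order. The printed Pdgfra window is thus nearly as poor in CpG as that of Mog, while those of Cspg4 and Olig2 are richer.

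Replicate 2 stood apart from the other libraries. It gave 31189 peaks covering 13.7 Mb, against 9097 peaks (2.98 Mb) in replicate 1 and 7353 peaks (2.33 Mb) in replicate 3. The files give no read numbers, so the depth behind these lists is unknown. Of the regions found in 2 lists, 5006 of 5008 included replicate 2, and so did 21201 of the 21513 found in 1 list. Without replicate 2, 4978 regions were shared by the remaining pair, close to the 4932 shared by all 3, but their median width was 407 bp in place of 766 bp. The number of shared regions thus rested on replicates 1 and 3, and their width on replicate 2.

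The shared regions covered 4.24 Mb, and the 4932 regions are all counted, with no filter on low values. Replicate 2 covered 98.8% of these bases, replicate 1 49.0% and replicate 3 44.2%. The bases covered in all 3 libraries at once came to 1.43 Mb (33.7%), and 158 regions had no such base. Median fold enrichment, as the authors' peak caller gave it, was 5.21, 8.87 and 4.85 in replicates 1, 2 and 3. In regions found in 2 lists, just outside the rule, the medians were 4.40, 6.31 and 4.29, and the median width was 512 bp. Of the 1000 strongest peaks of each list by q-value, 92.6%, 92.5% and 94.6% lay in a shared region. Across the shared regions, the covered length correlated between libraries with Spearman's rho of 0.574 (1 and 2), 0.549 (1 and 3) and 0.518 (2 and 3), and the enrichment with 0.406, 0.326 and 0.373, values that share the choice of regions and peak caller.

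Most shared regions lay at gene starts. By the authors' annotation, 4537 regions (92.0%) were promoters, meaning within 3000 bp of a transcription start site, and 4442 of them were within 1000 bp. The other 395 comprised 184 distal intergenic regions, 138 in introns, 33 in 3′ UTRs, 32 in exons, 7 in 5′ UTRs and 1 just downstream of a gene. The promoter share was 80.1% of the regions found in 2 lists and 58.6% of those found in 1. Within single lists it was 85.2%, 67.5% and 88.8% of all peaks in replicates 1, 2 and 3, so the list with the most peaks had the lowest share. Promoter and other regions had similar median widths, 761 and 821 bp. Enrichment was lower outside promoters in each library, with medians of 4.67, 6.84 and 4.48 against 5.22, 9.0 and 4.91 at promoters. Distal intergenic regions lay a median of 11.9 kb from the start site of the named gene, and 13 of 184 lay over 50 kb away.

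The summits, the positions of highest signal within each peak, were placed beyond the start site rather than on it. For the strongest peak of each library in a shared region, the nearest RefSeq start lay within 2 kb for 73.0%, 72.9% and 72.9% of 4778 regions (chromosome 18 was not analysed here for start sites). Among those, 76.7%, 77.9% and 76.9% of summits were downstream. The median offset was 164 bp downstream in replicate 1, 158 bp in replicate 2 and 168 bp in replicate 3. The fullest 100-bp bin ran from 100 to 200 bp downstream in every library and held 30.8%, 34.4% and 29.3% of the summits. Within 50 bp of the start lay 4.33%, 4.42% and 4.25%. The 3 libraries, so different in the number of peaks, gave nearly the same profile at these regions. The regions were kept because peaks of all 3 lists fell in them, so part of this likeness follows from the choice. In the regions found only in replicate 2, 61.7% of summits within 2 kb were downstream.

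**Figure D1:**
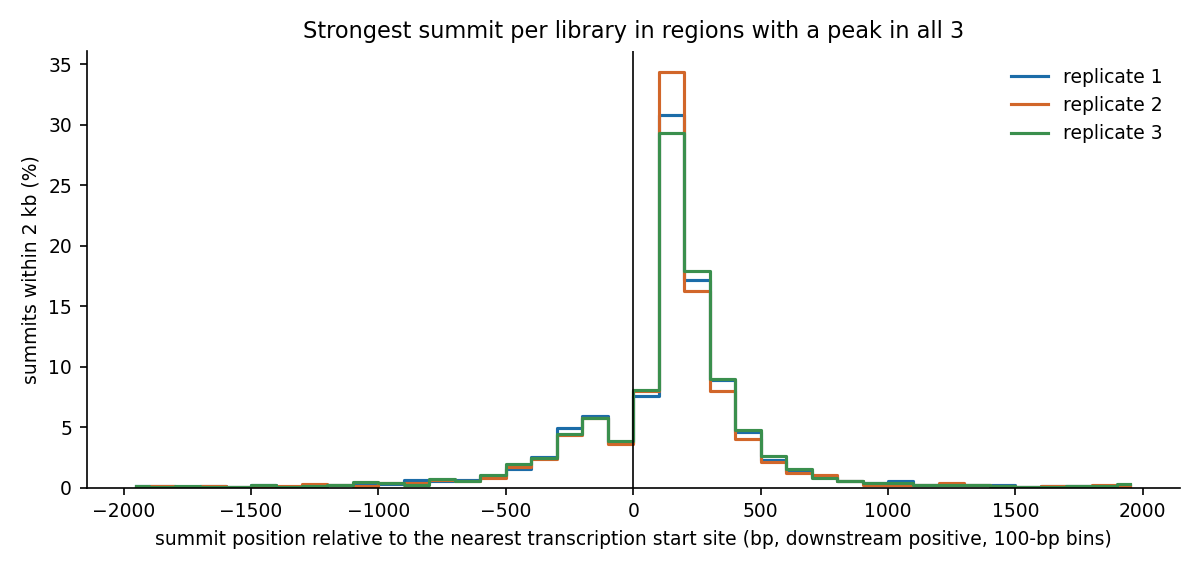
Position of the strongest peak summit of each library relative to the nearest RefSeq transcription start site, as percent of summits within 2 kb in 100-bp bins, for the shared regions. All 3 lines are highest from 100 to 200 bp downstream of the start, dip at the start itself and show a lower shoulder upstream.

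Promoters with peaks in more libraries held more CpG dinucleotides. In the 300-bp RefSeq windows (250 before to 50 after the start, 32851 windows), the median number of CpG was 27 (interquartile range 19 to 36) for the 4699 windows with a peak of all 3 libraries within 1000 bp of the start. It was 22 (15 to 29) with 2 libraries, 17 (10 to 24) with 1 and 3 (2 to 6) with none. The GC content followed the same order, with medians of 67.0%, 62.3%, 58.7% and 47.7%. Pdgfra, with 5 CpG in its 300-bp window and a peak of all 3 libraries near its start, lay below the lower quartile of its class, and Ep300, with 30, lay within its quartiles. Windows with a second gene starting on the other strand within 1000 bp upstream made up 22.6% of those with 3 libraries and 11.4% of all windows.

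**Figure D2:**
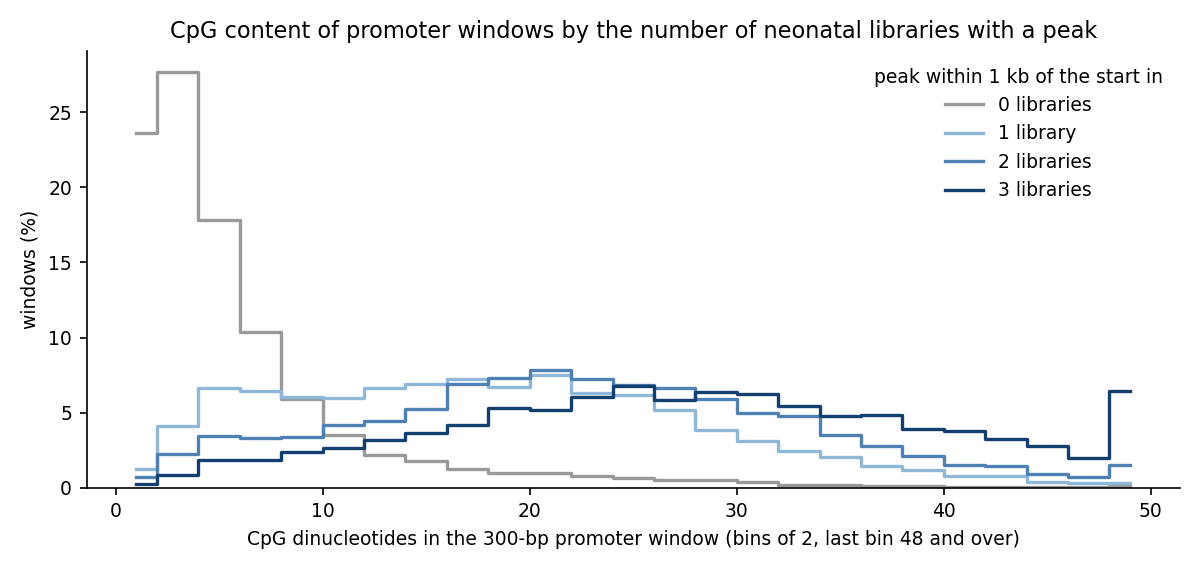
Number of CpG dinucleotides per 300-bp RefSeq promoter window (bins of 2), as percent of windows, by the number of neonatal libraries with a peak within 1 kb of the start. The line for 0 libraries is highest at 2 to 3 CpG, and the line for 3 libraries is broad with its median at 27.

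Short motifs were counted on both strands of the same windows, as letters present or absent. The GC box GGGCGG was in 73.4% of windows with peaks of 3 libraries, 14.6% with none and 35.7% of all windows. The ETS core CCGGAA was in 24.8%, 6.47% and 14.9%, and the cyclic AMP response element TGACGT in 11.4%, 4.80% and 7.51%. Each of these holds a CpG. With 1 and 2 libraries the GC box was in 56.7% and 68.3%, CCGGAA in 25.8% and 31.0% and TGACGT in 11.3% and 11.3%, so CCGGAA was most frequent at 2 libraries and TGACGT differed little from 1 to 3. The TATA box TATAAA went the other way, with 4.30% at 3 libraries, 19.1% at none and 13.6% of all windows. The Sox motif ACAATG was in 6.51%, 16.6% and 12.6%, and the CCAAT box CCAAT in 29.6%, 38.7% and 37.4%. The E-box CAGCTG, of the kind that helix-loop-helix factors bind, was in 14.2%, 16.9% and 16.3%, and the NRF1 core GCATGC in 9.51%, 6.78% and 7.93%. In the windows printed above, Olig2 held 2 GC boxes and 1 TATA box, and Pdgfra held neither of these.

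All 5 marker genes had a shared region. The background for such a count is that 18.7% of 21631 protein-coding genes were named for a shared region. The promoter region of Pdgfra (chr5:75152759-75155229) was 2471 bp wide. It held 1638 bp of peaks in replicate 1, 2460 bp in replicate 2 and 991 bp in replicate 3, with fold enrichments of 5.79, 9.58 and 4.04. Its summits lay 1097, 1005 and 2046 bp downstream of the RefSeq start in replicates 1, 2 and 3, and the CpG-poor window shown above lay outside the region. Replicate 2 added 6 regions around Pdgfra that the other libraries lacked.

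Olig2 had a promoter region of 2191 bp (chr16:91225644-91227834) with 727, 2191 and 476 bp of peaks and enrichments of 5.88, 9.28 and 4.26. It began just downstream of the promoter window printed above. A distal region of 1103 bp, named for Olig2, began 6853 bp downstream of its start, with 686, 1103 and 432 bp. A region of 1610 bp on the upstream side (chr16:91222052-91223661), which the authors' annotation names for the predicted gene Gm49614, had 1094, 1458 and 550 bp and was singled out after its values were seen. Olig1, the paralog on the same chromosome, had 1 region of 2019 bp (chr16:91269842-91271860) with 1305, 2019 and 438 bp and enrichments of 6.68, 8.28 and 3.64. In each of these regions replicate 2 covered the most and replicate 3 the least.

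Cspg4 had 3 shared regions, none of them over its start. They began 1881 and 3617 bp downstream of the start and farther along the same intron, with widths of 1518, 806 and 780 bp. Its start itself lay in a 2499-bp region (chr9:56864254-56866752) with 244 bp of peaks in replicate 1, 2499 bp in replicate 2 and none in replicate 3. Sox10 had 1 shared region of 1515 bp at its start (chr15:79162941-79164455) with 394, 1408 and 458 bp and enrichments of 5.20, 8.61 and 5.45. No base of it was covered in all 3 libraries, and without replicate 2 it was not a shared region, which left 4 of the 5 markers. When each library had to cover at least 50% of a region, none of the 5 markers remained.

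**Figure D3:**
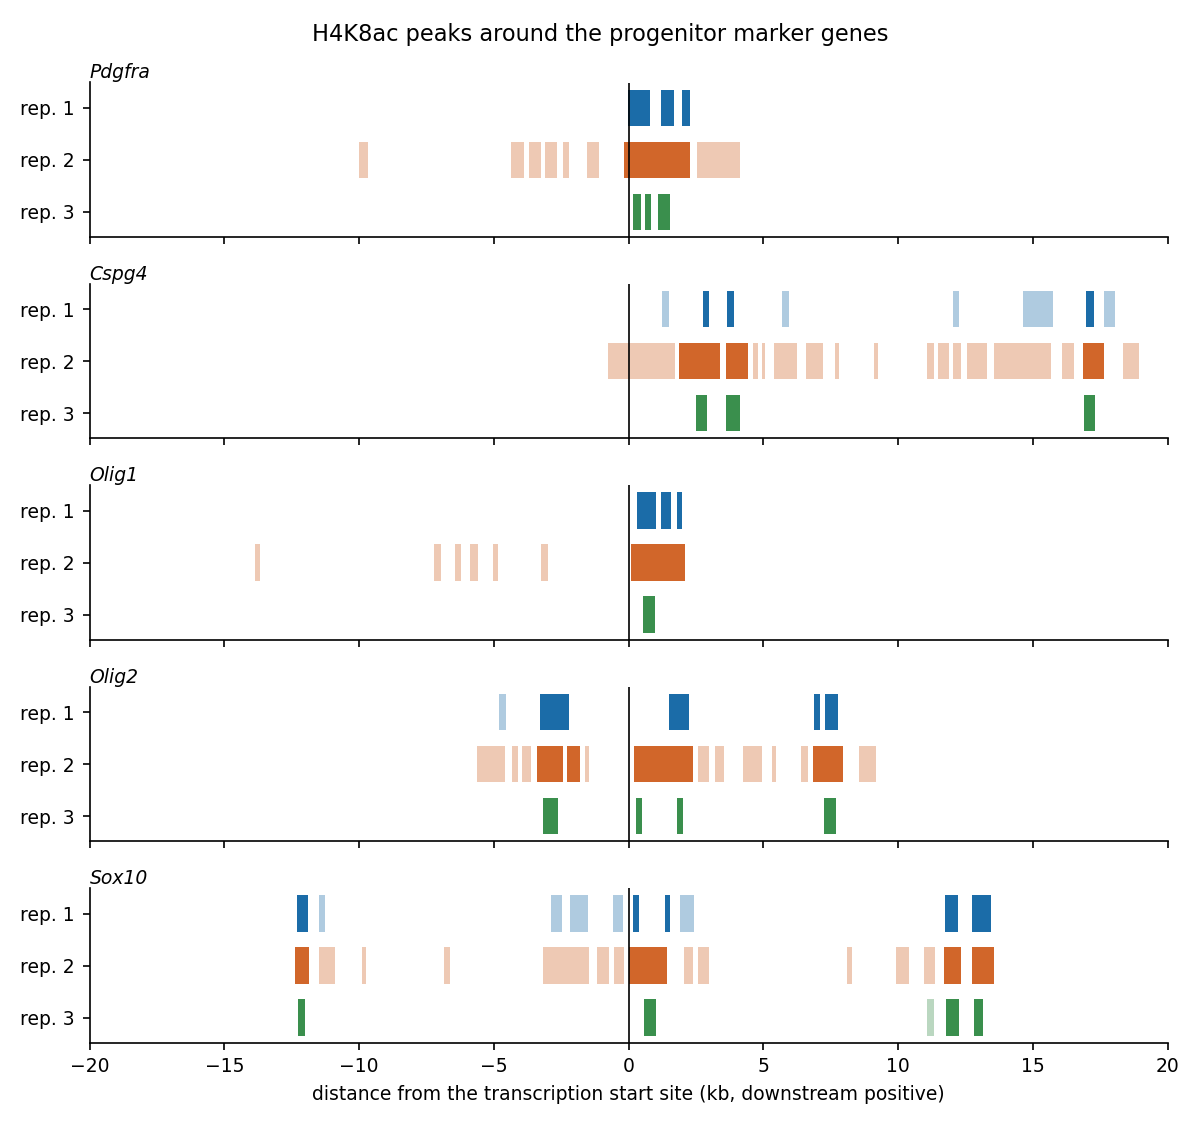
Peaks of each neonatal library (rep. 1 to 3) from 20 kb upstream to 20 kb downstream of the start of 5 marker genes, in kb from the start site of the transcript to which the authors assigned the widest peak. Full colour marks peaks in regions shared by all 3 libraries and pale colour the others, most of which are in replicate 2.

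The widest shared region, 4876 bp in an intron of Zcchc24 (chr14:25735261-25740136), lay 15469 bp upstream of the start site to which the authors' annotation assigned it. Replicate 1 covered 2759 bp of it in 4 peaks, replicate 2 all 4876 bp in 1 peak and replicate 3 885 bp in 2 peaks. Zcchc24 codes for a zinc-finger protein. Next came 4417 bp of intergenic sequence named for Gm36635 (chr12:111691880-111696296), between Trmt61a and Bag5, with 1788, 4417 and 1320 bp. The promoter region of Midn, whose product midnolin delivers nuclear proteins to the proteasome, spanned 4412 bp (chr10:80149754-80154165) with 2790, 4310 and 3070 bp. Midn was the most evenly covered of these, with 2239 bp common to all 3 libraries.

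The other 7 of the 10 widest were 6 promoters and an intergenic region. Ubtf, a factor of RNA polymerase I, had 3835 bp (1913, 3792 and 2078 bp in replicates 1, 2 and 3). Tril, a Toll-like receptor accessory protein, had 3492 bp (1062, 3432 and 1222 bp). Brd2, a BET protein that binds acetylated histone H4, had 3387 bp (2789, 3387 and 2350 bp). Of these 7, Brd2 was covered furthest in replicates 1 and 3, and it had fold enrichments of 9.07, 11.9 and 9.09. Its summits lay upstream of the start in the window printed above, at -493, -731 and -761 bp. Hivep2, a zinc-finger transcription factor, had 3292 bp (969, 3245 and 1022 bp). The intergenic region, 3107 bp named for the pseudogene Rps18-ps2 (chr4:8910931-8914037; 928, 3107 and 929 bp), lay 42.5 kb from Chd7, a chromatin remodeler. Cpeb2, a regulator of translation, had 3066 bp (1919, 3066 and 1974 bp), and Anp32a, an acidic nuclear phosphoprotein, had 3010 bp (1222, 3010 and 950 bp). The region that followed at rank 11, at 2948 bp, was the promoter of Arid1b, a subunit of the BAF remodeling complex.

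**Figure D4:**
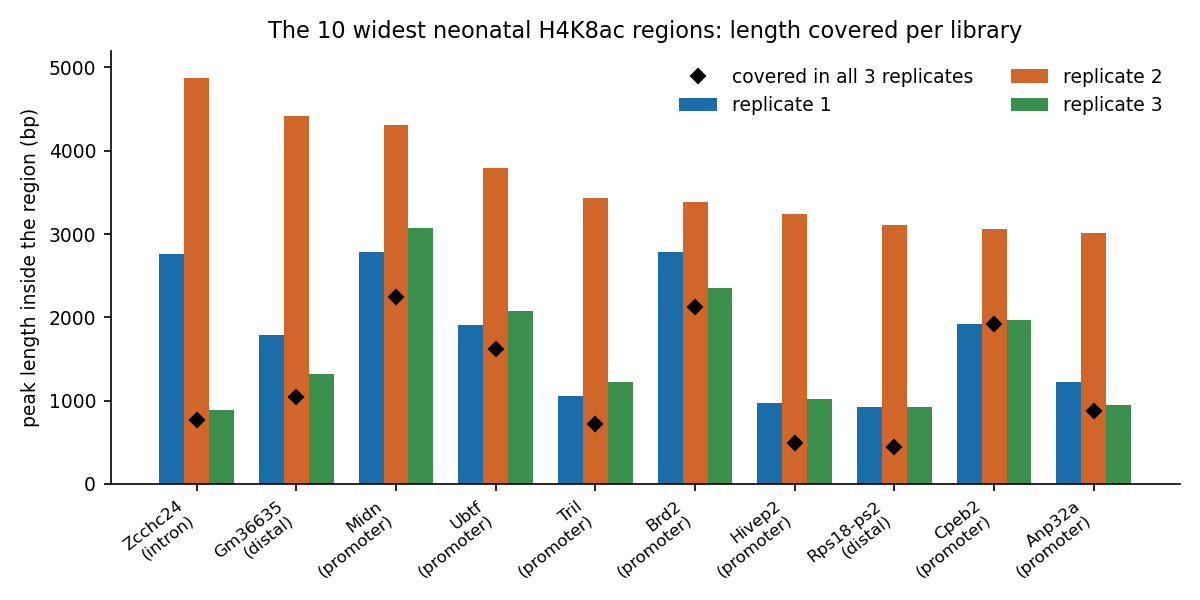
Length of peaks (bp) of each neonatal library inside the 10 widest shared regions, with the length covered in all 3 as a diamond. Replicate 2 has the tallest bar in all 10, and the diamonds of Midn, Brd2 and Cpeb2 are the highest.

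The order of widths depended on replicate 2. Without it, 2 of these 10 regions were still among the 10 widest, and the widest was the promoter of Arid1b at 2246 bp, followed by Lncppara, Midn, Efs, Qk, Cpeb2, Usp24, Dnmt3a, Chd7 and Map4k4. Ranked by the bases covered in all 3 libraries, the order began with Midn (2239 bp), Brd2 (2128 bp), Arid1b (2030 bp), Cpeb2 (1919 bp) and Ubtf (1624 bp). Midn and Cpeb2 were among the 10 widest in both rankings and in the original one. Regions outside promoters were 3 of the 10 widest, 19 of the 100 widest and 8.01% of all shared regions. Over 1 kb wide were 1511 regions (30.6%), and 77 were over 2 kb.

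After Zcchc24, Gm36635 and Rps18-ps2, the widest regions outside promoters were 2676 bp named for the pseudogene Gm8275 (842, 2676 and 795 bp) and 2668 bp named for Otub1 (645, 2498 and 932 bp). The nearest-gene name can mislead here. The region named for Otub1 (chr19:7155555-7158222) lay 40.0 kb from that gene, in an intron of Macrod1 and within the span of Flrt1. The region named for Gm8275 (chr12:79988812-79991487) lay between Rad51b and Zfp36l1, 116.0 kb from the latter, an RNA-binding protein that promotes mRNA decay.

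The most strongly enriched regions were narrower promoters. Ranked by the lowest of the 3 enrichments, Atp6v0c, a subunit of the vacuolar proton pump, was at the top with folds of 12.7, 19.6 and 11.4 over 1071 bp. The acetyltransferase Ep300, one of the enzymes that writes H4K8ac, followed with 10.2, 13.9 and 12.4 over 1354 bp. Its summits lay upstream of the RefSeq start of Ep300, at -352, -334 and -416 bp. The offsets for Ep300 and Brd2 are to a start of the gene itself. The downstream pattern used the nearest start of any gene, so whether these regions departed from it was not tested. The authors' annotation named no replicate 1 peak for Ep300, and in replicate 3 only 1 peak of 153 bp with a fold of 3.26. The folds of 10.2 and 12.4 thus came from peaks named for another gene, and the wide replicate 2 peak gave the region its name. Then came the kinase Brsk1 (10.4, 12.9 and 10.2), the ESCRT-III subunit Chmp3 (10.1, 17.2 and 11.9) and the RIKEN transcript 1810026B05Rik (10.0, 18.4 and 10.5). Sp3, which binds GC boxes (9.89, 14.4 and 10.1), Cyth2 (9.86, 15.8 and 11.6), Map4k4 (10.4, 13.8 and 9.66), Msl2 (9.65, 12.1 and 10.4) and Sik3 (9.91, 15.3 and 9.62) completed the 10. Msl2 belongs to the MSL complex, which acetylates histone H4 at another lysine. All 10 were promoters, from 379 bp (Cyth2) to 1971 bp (Map4k4) wide, and none was among the 10 widest.

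The shared regions were named for 4498 genes, of which 4143 (92.1%) had a single region, 294 had 2, 49 had 3 and 12 had more. A promoter region was present for 4265 genes. RefSeq gave a type for 4302 of these names, 4052 of them protein-coding and 172 long noncoding RNAs.

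Cuedc1, whose product carries a ubiquitin-binding CUE domain, had the most covered bases, 7064 bp in 5 regions over 63.6 kb. The peaks in them came to 2830 bp in replicate 1, 6905 bp in replicate 2 and 3066 bp in replicate 3. It also had the most peaks in the library with the fewest, with 14, 42 and 10 peaks named for it. Midn was next by bases with 6113 bp in 3 regions. Otub1 (6057 bp), Gm14488 (6039 bp), Gm8275 (6005 bp), Nol4l (5987 bp), Zcchc24 (5818 bp), Tnrc18 (5447 bp) and Gm36635 (5336 bp) followed after Gm10863 (6109 bp). Of the regions named for Otub1, only that of 406 bp overlapped the gene. The others (1345, 2668 and 1638 bp) lay in introns of Macrod1. Of the 10 genes with most bases, 6 were protein-coding and 4 were predicted noncoding genes or pseudogenes. Among the 100 with most bases, 24 were not protein-coding or had no RefSeq type, against 9.92% of all named genes.

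Gm10863, a long noncoding RNA gene, had the most regions. Its 7 shared regions (chr15:79176346-79212873) began from 11.9 to 47.6 kb upstream of the start of Sox10, in the interval between Sox10 and Pick1. The widest, 1296 bp and 29.0 kb upstream of Sox10, had 1045, 1296 and 755 bp of peaks and enrichments of 4.08, 9.50 and 5.14. The others were 1141, 989, 911, 812, 518 and 442 bp wide. Over the 7 regions the peaks came to 3756, 6003 and 2786 bp in replicates 1, 2 and 3, of which 1807 bp were common to all. The interval upstream of Sox10 is known to hold enhancers of this gene in glia and neural crest, and the files assign none of these regions to Sox10.

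The gene with 6 regions was 9430078K24Rik, a noncoding RNA gene on chromosome 12. Of these, 5 lay in introns of Rad51b and the sixth between Rad51b and Zfp36l1, with 2497, 4888 and 1353 bp of peaks in replicates 1, 2 and 3. The 4 regions of Gm8275 lay in the same gap between Rad51b and Zfp36l1. Genes with 4 regions were also Otub1, Gm14488, Nol4l, Ptma (the chromatin-associated protein prothymosin alpha), Gm26682, Irf2bp2 (a corepressor), Gm4632 and Arvcf. Hacl1 had 3 regions, all of them inside the neighbouring gene Btd.

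Genes were also read by lists of cell types and functions. A gene was named for any peak, in a shared region or not, in 27.2% of protein-coding genes in replicate 1, 55.6% in replicate 2 and 24.2% in replicate 3. Of 16 genes of oligodendrocyte progenitors, 10 had a shared region with a median of 1771.5 bp covered, against 18.7% and 792.5 bp over protein-coding genes. Besides the 5 markers, these included Cspg5, a proteoglycan (2146 bp in 2 regions), Ptprz1, Sox5 and Sox6. Placed by position and not by the nearest start, 13 of the 16 had a region, against 21.3% of protein-coding genes. The progenitor genes gained, named after their values were seen, were Nkx2-2, Lhfpl3 and Tnr. By position the count fell from 9 to 7 for the signalling list below, from 6 to 5 for neural stem cells, from 4 to 3 for immediate early genes and from 1 to 0 for microglia, and rose from 16 to 18 for ribosomal proteins.

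Later stages of the lineage were read from 2 lists. Of 12 genes of committed precursors 3 had a shared region: Gpr17, a receptor of that stage (1185 bp), Tcf7l2, a Wnt pathway factor (747 bp), and Fyn, a kinase (658 bp). Of 16 myelin genes 1 (6.25%, against the same 18.7%) had a region, Mbp (myelin basic protein). It had 780, 1255 and 435 bp of peaks in 1259 bp (chr18:82474896-82476154) at a start site of the gene. Mbp shares its locus with the Golli transcripts, which are made from an upstream start. The starts of the Golli and the myelin transcripts were not told apart here, so the region does not show a mark at the myelin start. Named for any peak were 3, 10 and 5 of the 16 myelin genes in replicates 1, 2 and 3. These are 18.8%, 62.5% and 31.2%, against 27.2%, 55.6% and 24.2% of protein-coding genes, so the list lay below that share only in replicate 1.

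Neural stem cell and radial glia genes had a shared region in 6 of 16 (37.5%), against 18.7% of protein-coding genes. The Notch receptor Notch1 had 2908 bp in 3 regions, Nfix 2729 bp in 2, the Notch target Hes1 2005 bp in 2 and Nfib 1946 bp in 2. Of 16 genes for signals that act on progenitors 9 (56.2%) had a region, a list that also holds Notch1 and Hes1. Fgfr1, a fibroblast growth factor receptor, had 1987 bp, and Id2, an inhibitor of helix-loop-helix factors, had 1816 bp.

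Markers of other cells were read from 6 lists. The lists for neurons, astrocytes, microglia, endothelium, pericytes and fibroblasts and unrelated lineages held 82 genes, and 3 of these (3.66%) had a shared region, against 18.7% of protein-coding genes. They were Ndrg2 (1698 bp) and the glutamate transporter Slc1a2 (774 bp), both of the astrocyte list of 12 (16.7%, near that background), and Spi1 (987 bp), a microglial transcription factor whose region lay 3039 bp upstream of the gene's start. No gene of the neuron (16), endothelium (12), pericyte and fibroblast (12) or unrelated lineage (16) lists had one. Named for any peak were 6, 36 and 8 of the 82 genes in replicates 1, 2 and 3, so that replicate 2 had the most. In replicate 2 these were 8 neuronal, 10 astrocyte, 3 microglial, 6 endothelial, 5 pericyte or fibroblast and 4 unrelated genes. For the astrocyte list alone the genes named for any peak were 4, 10 and 3 of 12, against 27.2%, 55.6% and 24.2% of all protein-coding genes. No library had a peak named for 11 of the 14 microglial genes or for 7 of the 12 of pericytes and fibroblasts. The part of other cells in the longer list of replicate 2 was not tested. In sorted cells as a bulk, a mark in fewer cells and a weaker mark in each cell cannot be told apart.

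**Figure D5:**
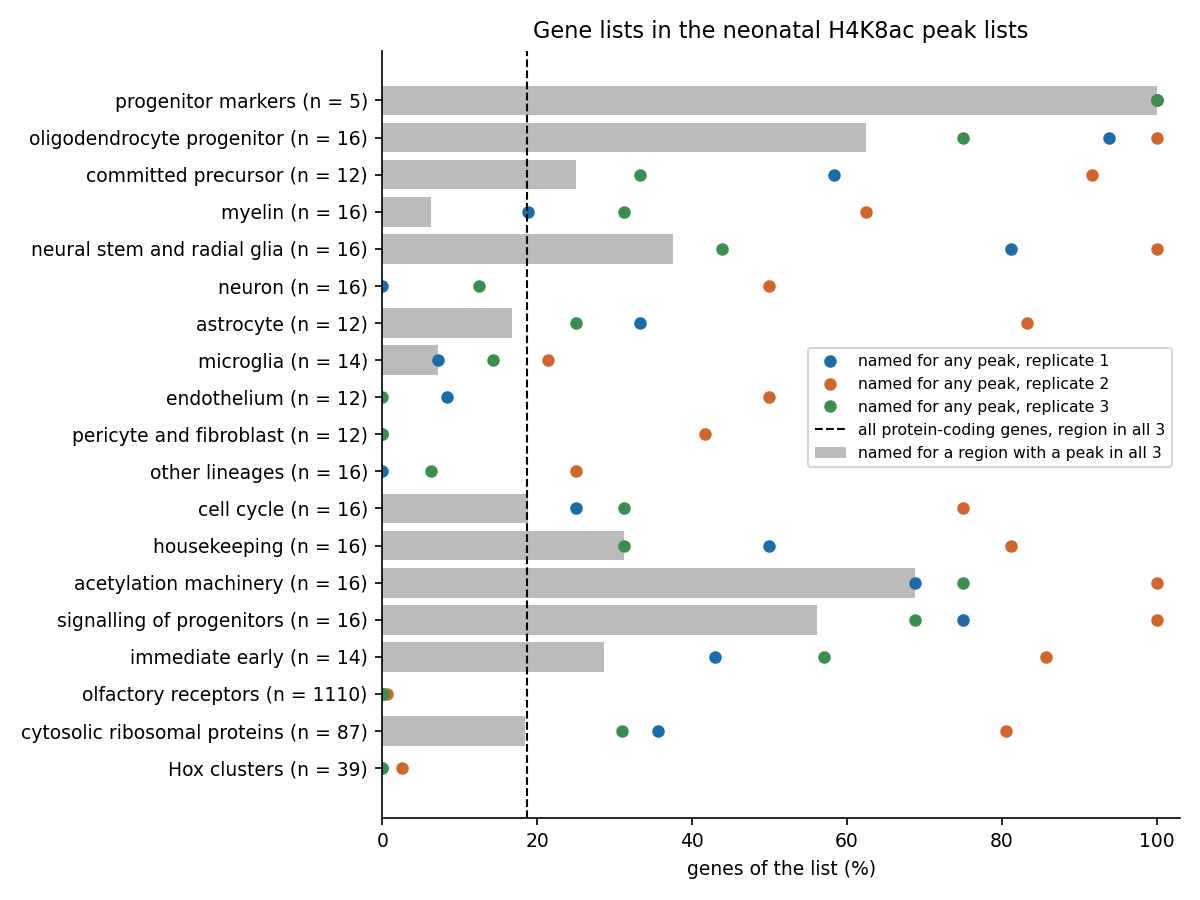
Percent of the genes of each list named for a region shared by all 3 neonatal libraries (grey bars) and for any peak in each library (points). The dashed line is the 18.7% of all protein-coding genes, and the bars of the neuron, endothelium, pericyte and fibroblast, unrelated lineage, olfactory receptor and Hox lists are at 0.

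Of 16 genes of the acetylation machinery, which writes, removes or reads such marks, 11 (68.8%) had a shared region, against 18.7% of protein-coding genes. Brd2 had 3387 bp. The acetyltransferase Kat6b had 1403 bp in 2 regions, Ep300 1354 bp (662, 1354 and 715 bp) and the deacetylase Hdac2 1312 bp (745, 1312 and 1008 bp). The Ep300 region took that name from its replicate 2 peak, as described above. The list has a median of 1214.0 bp per marked gene, against 792.5 bp over protein-coding genes with a shared region.

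Lists of genes active in most cells gave these counts. Of 16 housekeeping genes 5 (31.2%) had a shared region, against 18.7% of protein-coding genes. Among them were 1849 bp for Ywhaz, 1627 bp for Actb and 1030 bp for Ppia. Of 87 cytosolic ribosomal protein genes 16 (18.4%) had one, with a median of 605.5 bp. Rpl10a had 1448 bp, Rpl21 750 bp and Rps15 660 bp. Of 16 cell cycle genes 3 (18.8%, at the background of 18.7%) had one, namely the cyclins Ccnd1 (3181 bp in 3 regions) and Ccnd2 (874 bp) and their partner kinase Cdk4 (843 bp). Of 14 immediate early genes 4 (28.6%) had one. They were Nr4a1 (3362 bp), Btg2 (2353 bp), Ier2 (1831 bp) and Dusp1 (1351 bp). None of 1110 olfactory receptor genes and none of 39 Hox genes had a shared region, and 1104 and 38 of them had no peak in any library.

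Chromosome X was nearly empty of shared regions. It held 7 of the 4932, and 6 of its 966 protein-coding genes (0.621%) were named for one. On the autosomes the share ran from 13.4% to 23.4% of genes, with a median of 20.5%. All peaks on X numbered 38 in replicate 1, 408 in replicate 2 and 21 in replicate 3, which is 0.418%, 1.31% and 0.286% of each list. The smallest share on any autosome was 3.02%, on chromosome 18 in replicate 1. Peaks on X that were called had median enrichments of 4.40, 4.56 and 4.04, against 4.70, 4.81 and 4.63 for all peaks. The 7 regions were all promoters, named for Kdm6a, a histone demethylase, Stag2, a cohesin subunit, Zfx, Mtmr1, Zmat1, Foxp3 and B630019K06Rik, which were named after their values were seen. The labels do not give the sex of the mice, and the cause was not tested.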

How the data were processed

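Per the submitters' processing notes, tools used were Trim Galore, Bowtie2 2.4.5, SAMtools, deepTools, MACS2, DiffBind and ChIPseeker, with build GRCm38. Their settings, and whether input was used to call peaks, are not given in the sources used here. The authors deposited 1 peak list per library, so replicates were not pooled. Per the file headers, the deposited columns are a fold enrichment (a ratio), p- and q-values as −log10, a score and an annotation. Fold enrichments are the authors' own and describe peaks within a list.

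Peaks were merged with numpy 2.4.6 and pandas 2.3.3 under Python 3.11.15, and the merging code was checked on simulated intervals. A region took the gene and class of its widest peak, from the authors' annotation. Start sites and promoter sequences came from RefSeq (GRCm38.p6). Coordinates count from 1. No test was run, since the lists chose the regions. Members, gene lists and motifs were chosen with earlier results of these data known. Named were the 10 widest regions (5 outside promoters), the 10 with the highest lowest enrichment, the 10 genes with most bases, regions or peaks, the markers, and up to 4 genes per list by bases. Some genes that this rule names are not reported here. The alternatives were a stricter q, equal list lengths, merged gaps, 50% cover, the common bases, a 1000-bp promoter, genes by position and each library left out.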

Additional observations from a re-analysis of the deposited data

How the results depend on the processing

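Of 78 values recomputed under alternatives, 56 stayed within 1.5 times the count or within 1 SD between libraries, and 22 did not. The SDs came from single libraries. They were 11.4 points for the promoter share of all peaks, 39.1 bp for their median width, 1.28 Mb for the length covered in shared regions and 2000 bp for that in the widest region. From 92.0%, the promoter share could not rise past its limit, so its upward changes could not count as moved. Requiring each library to cover 50% of a region gave 1510 regions, 1.06 Mb, a median of 599 bp, 1406 genes with a promoter region, 0 of 5 markers, 1 of 16 progenitor genes and 0 genes of other cell types. Taking the bases common to all 3 libraries gave 1.43 Mb, a median of 246 bp and a widest region of 2239 bp. Merging gaps of up to 1000 bp gave 6.60 Mb, a median of 1146 bp and a widest region of 13846 bp, at Midn. Leaving out each library in turn gave 4978 to 8131 regions, 2.32 to 6.09 Mb, medians of 407 to 681 bp, widest regions of 2246 to 4876 bp and 3 to 8 genes of other cell types. The lowest of each came without replicate 2, the 8131 regions and 6.09 Mb without replicate 3 and the 8 genes without replicate 1. The promoter share ran from 86.6% to 95.6% over all alternatives. The stricter q-value and equal list lengths moved none of the 9 results past these limits, and equal list lengths dropped Cspg4 from the markers. The cause was not tested. No paired analysis was possible because the neonatal libraries were not compared with another group. Depth is unknown, so the absence of a region says only that no peak was listed.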

Other observations

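Shared regions also gathered in clusters that span several genes. Joined across gaps of up to 12.5 kb, a distance chosen after the data were seen, the 4932 regions formed 4412 loci, of which 434 held more than 1 region and 3 held more than 4. The locus with most regions, 6 over 26.4 kb on chromosome 10, ran from Cbarp through Midn towards Cirbp, a cold-inducible RNA-binding protein, and had 4630, 9472 and 4908 bp of peaks in replicates 1, 2 and 3. The other with 6 regions was the stretch of 20.8 kb named for Gm10863 upstream of Sox10, with 3376, 5485 and 2512 bp. A locus of 5 regions over 24.3 kb on chromosome 7 covered the promoters of Zfp784, Zfp580, Ccdc106 and U2af2, a splicing factor. Loci of 4 regions included that of Pou3f3, a POU factor of the developing brain (866, 3567 and 996 bp) and that of Chd4, a nucleosome remodeler (1618, 3506 and 1038 bp).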
